A study of Mus musculus with 45 samples.

Results

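The genes described here are the transcription factor Trp53, which encodes p53, and 9 genes known as its transcriptional targets: Mdm2, Ccng1, Bax, Bbc3, Pmaip1, Zmat3, Perp, Trp53inp1 and Gadd45a. They were measured in mouse brain tumours that all carried a p53-null background. The members were taken as the probe sets that the platform annotation maps to these symbols alone, and each gene was represented by its probe set of highest mean signal. That gave 8 of the 10 listed genes, with 12 probe sets, out of 17097 genes with a probe set of their own. Trp53 and Bax were not analysed here, so the p53null label was not checked by the level of Trp53. All 8 measured genes passed the filter on low values, which kept 11809 genes with 3 or more arrays above 4.79, the median log2 signal of the table. Perp was above that level in 12 of the 45 arrays and Pmaip1 in 17, so both were dim in most tumours.

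The study delivered wild-type PDGFRA or 6 mutants of it by retrovirus to primary mouse astrocytes that lack p53, and the arrays hold RNA labelled as mouse brain from a glioblastoma model of the CD-1 nude strain. The groups were Pdgfra C450 ins with 5 arrays, Pdgfra D842V with 5, Pdgfra E7 del with 3, Pdgfra E10 del with 5, Pdgfra E10 del.v2 with 9, Pdgfra V544ins with 9, Pdgfra WT with 1, and EGFRvIII with 8. PDGFRA is a receptor tyrosine kinase of glial progenitors, and EGFRvIII is a truncated EGF receptor found in human glioblastoma that signals without ligand. Every group shares the p53null label, so no comparison in these data sets p53-null tumours against tumours with p53, and the labels name neither the p53 allele nor the retroviral promoter. The labels do not say whether replicates came from separate animals, so p-values rest on the spread among these samples alone, which may in part be technical. In bulk samples, fewer cells of a type and less RNA per cell cannot be told apart.

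p53 is held at low levels by the ubiquitin ligase Mdm2, whose own gene p53 activates, which closes a negative feedback loop. After DNA damage or oncogene activity p53 accumulates and switches on genes for cell cycle arrest and DNA repair (Gadd45a), for apoptosis (the BH3-only genes Bbc3, also called PUMA, and Pmaip1, also called NOXA, and the membrane protein gene Perp) and for regulation of p53 itself (Ccng1, Trp53inp1 and the RNA-binding zinc finger gene Zmat3). Most of these genes are also transcribed without p53, and Gadd45a, Pmaip1 and Bbc3 are known to answer to stress and forkhead or ATF4 signals as well.

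Promoter windows that RefSeq pairs with a start site are shown here for some members, with any match to the element through which p53 is known to act. Elements outside these windows were not searched for. RefSeq sequence of the GRCm38.p6 build, from 250 bases before to 50 bases after the start, was matched by symbol and is given for 4 of the 8 genes. The sequence of Pmaip1 is not reported here. The windows were searched for the p53 response element consensus, a pair of adjacent 10-base units that reads the same on both strands, with the core C and G of each unit required and at most 3 mismatches over the 20 bases. Capitals mark the match, and each line runs from 5′ to 3′ on the strand of the gene.
Ccng1, chr11:40755237-40755536, minus strand: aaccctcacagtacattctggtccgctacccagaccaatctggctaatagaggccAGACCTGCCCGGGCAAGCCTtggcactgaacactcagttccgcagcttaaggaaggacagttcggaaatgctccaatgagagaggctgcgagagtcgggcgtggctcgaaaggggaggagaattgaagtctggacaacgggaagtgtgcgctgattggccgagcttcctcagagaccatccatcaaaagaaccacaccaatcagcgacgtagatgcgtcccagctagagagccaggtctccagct
Bbc3, first of 3 windows, chr7:16309333-16309632, plus strand: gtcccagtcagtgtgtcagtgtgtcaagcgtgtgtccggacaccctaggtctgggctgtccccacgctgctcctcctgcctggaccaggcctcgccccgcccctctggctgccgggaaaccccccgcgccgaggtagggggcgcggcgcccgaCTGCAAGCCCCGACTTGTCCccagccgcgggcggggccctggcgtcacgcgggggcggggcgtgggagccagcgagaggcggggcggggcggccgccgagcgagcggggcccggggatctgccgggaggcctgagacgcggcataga
Mdm2, chr10:117710709-117711008, minus strand: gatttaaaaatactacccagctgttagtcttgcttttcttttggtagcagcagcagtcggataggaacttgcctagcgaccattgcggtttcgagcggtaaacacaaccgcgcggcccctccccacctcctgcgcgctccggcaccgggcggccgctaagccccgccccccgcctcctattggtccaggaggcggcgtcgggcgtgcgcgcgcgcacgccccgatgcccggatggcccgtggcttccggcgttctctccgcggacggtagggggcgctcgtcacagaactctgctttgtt
Gadd45a, chr6:67037358-67037657, minus strand: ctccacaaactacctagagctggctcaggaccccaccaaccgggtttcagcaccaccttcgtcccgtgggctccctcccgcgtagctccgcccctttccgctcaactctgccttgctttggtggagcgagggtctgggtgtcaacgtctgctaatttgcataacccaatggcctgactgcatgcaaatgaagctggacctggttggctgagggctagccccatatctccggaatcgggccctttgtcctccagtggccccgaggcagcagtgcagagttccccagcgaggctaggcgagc

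The Ccng1 window held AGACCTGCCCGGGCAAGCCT, which has 1 mismatch and begins 195 bases before the start. Of 32851 promoter windows of the same length, 22 (0.067%) held a match with at most 1 mismatch. The Bbc3 window held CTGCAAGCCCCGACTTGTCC, with 3 mismatches, 97 bases before the start, and 453 windows (1.38%) held a match that good. The other 2 Bbc3 windows held none within 3 mismatches. No window of Mdm2 or Gadd45a held one within 3 mismatches, which says only that these letters are not in these 300 bases. No binding data were analysed here, so the matches were set against none.

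The first results are the levels of each gene by genotype. Mdm2, the ubiquitin ligase that p53 both activates and is degraded by, had mean log2 signals of 8.19 ± 0.28 in Pdgfra C450 ins (SD, n = 5), 8.43 ± 0.15 in D842V (n = 5), 8.67 ± 0.19 in E7 del (n = 3), 8.22 ± 0.36 in E10 del (n = 5), 8.32 ± 0.19 in E10 del.v2 (n = 9), 8.32 ± 0.25 in V544ins (n = 9) and 8.36 ± 0.26 in EGFRvIII (n = 8), with 8.48 in the single Pdgfra WT array. From highest to lowest the replicated groups ran E7 del, D842V, EGFRvIII, E10 del.v2, V544ins, E10 del and C450 ins. Only the first gap, of 0.23 between E7 del and D842V, was larger than the larger SD of its neighbours. Over all 8 genes there were 48 such gaps between neighbouring groups, and that one of Mdm2 was the single gap above the larger SD. How often such a gap occurs over all genes was not counted. E7 del holds only 3 arrays, and E7 del and D842V also differ in title number range, described further on.

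Ccng1, which encodes cyclin G1, a partner of the PP2A phosphatase in p53 control, had group means from 9.21 ± 0.11 in D842V (n = 5) to 9.53 ± 0.39 in E10 del.v2 (n = 9), with 9.39 ± 0.35 in EGFRvIII (n = 8). Zmat3 was lowest in E7 del, at 8.32 ± 0.36 (n = 3), and highest in E10 del.v2, at 8.92 ± 0.37 (n = 9), against 8.66 ± 0.37 in EGFRvIII. Trp53inp1, which encodes a nuclear cofactor that promotes autophagy and p53 phosphorylation, was lowest in E10 del, at 7.86 ± 0.78 (n = 5), and highest in E7 del, at 8.75 ± 0.13 (n = 3), against 8.20 ± 0.56 in EGFRvIII. These genes were above the table median on every array. For each of the 3, no gap between neighbouring group means exceeded the larger SD of the pair.

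The apoptosis genes were dimmer or more scattered. Bbc3 had means from 5.56 ± 0.28 in E10 del (n = 5) to 5.98 ± 0.29 in E7 del (n = 3), against 5.70 ± 0.33 in EGFRvIII (n = 8). Pmaip1 ranged from 4.01 ± 0.66 in D842V (n = 5) to 5.83 ± 1.51 in E7 del (n = 3), against 5.17 ± 1.44 in EGFRvIII. Perp was lowest in E7 del, at 3.91 ± 0.99 (n = 3), and highest in E10 del, at 5.0 ± 1.24 (n = 5), against 4.42 ± 1.16 in EGFRvIII. For Pmaip1 and Perp the SD within 3 groups each exceeded 1 log2 unit, and no gap between neighbouring group means exceeded the larger SD.

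**Figure D1:**
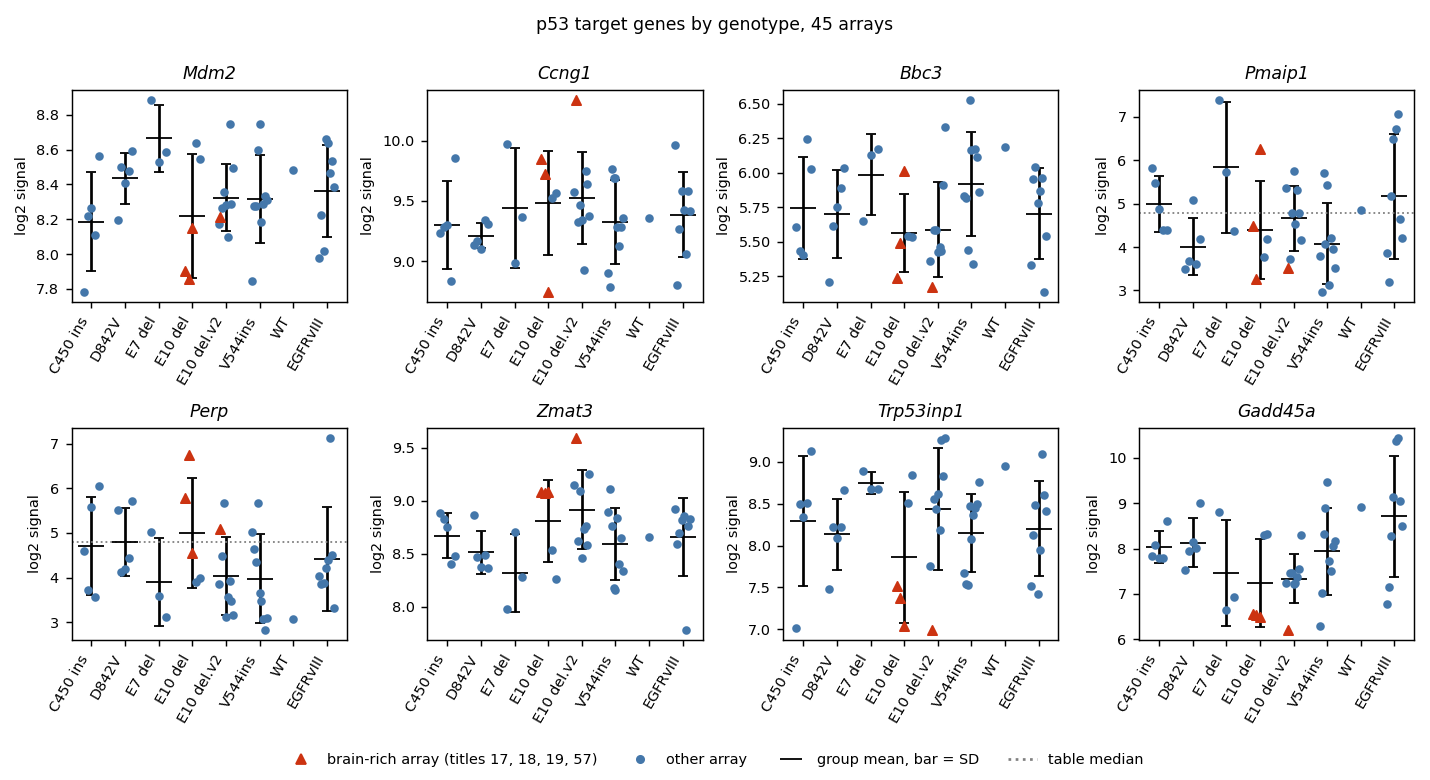
Log2 signal of each measured gene (vertical axis) in every array by genotype (horizontal axis), with the mean and SD of each replicated group as a line and bar, and the table median dotted where a gene lay near it. The ranges of replicated groups overlapped for every gene, other than Trp53inp1 in E7 del (8.67 to 8.89) and D842V (7.49 to 8.67), red triangles mark the arrays with titles 17, 18, 19 and 57, and the 3 highest EGFRvIII arrays for Pmaip1 lay between 6.48 and 7.07.

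Gadd45a, which encodes a stress-induced inhibitor of the G2 to M transition and a cofactor of DNA repair, had the widest spread among genotypes of the well-expressed members. Its log2 signals were 7.84, 8.08, 7.80, 7.78 and 8.62 in Pdgfra C450 ins, and 7.54, 7.94, 8.15, 8.02 and 9.01 in D842V. The E7 del arrays had 8.80, 6.65 and 6.94, and the E10 del arrays had 6.55, 6.54, 6.49, 8.31 and 8.32. In E10 del.v2 the lowest, median and highest values were 6.20, 7.38 and 8.30, in V544ins they were 6.28, 8.06 and 9.46, and in EGFRvIII they were 6.77, 8.76 and 10.44. The Pdgfra WT array had 8.91. The 3 lowest arrays of E10 del stood apart from the other 2 of their group, and 2 EGFRvIII arrays, at 10.38 and 10.44, were above every mutant array.

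The first comparison asked whether tumours driven by the mutant PDGFRA forms and tumours driven by EGFRvIII differed in these genes. The 6 mutant groups, each with the same weight, were averaged and set against EGFRvIII with limma, and none of the 8 genes passed an adjusted p of 0.05, beside 8.9% of all 11809 genes tested. Gadd45a had the largest difference, of -1.02 ± 0.35 (SE), a 2.03-fold lower level in the mutants, with an unadjusted p of 0.00574 and an adjusted p of 0.0584. Its group means were 8.02 ± 0.35, 8.13 ± 0.54, 7.46 ± 1.17, 7.24 ± 0.98, 7.34 ± 0.54 and 7.94 ± 0.95 in C450 ins, D842V, E7 del, E10 del, E10 del.v2 and V544ins, and 8.71 ± 1.34 in EGFRvIII, so all 6 mutant means were lower. Pmaip1 differed by -0.51 ± 0.40 (adjusted p = 0.404).

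The other 6 members had differences within 0.07 of 0 on the log2 scale. Mdm2 differed by -0.00 ± 0.10, with a 95% interval from -0.21 to 0.20, and Ccng1 by -0.01 ± 0.14, with an interval from -0.30 to 0.29. For Zmat3 the difference was -0.02 ± 0.13 (-0.29 to 0.25) and for Bbc3 it was 0.05 ± 0.14 (-0.23 to 0.32). Trp53inp1, with 0.07 ± 0.24 (-0.41 to 0.55), and Perp, with -0.01 ± 0.39 (-0.81 to 0.78), had wider intervals. The median difference of the 8 members was -0.01, beside -0.02 over all genes tested, and 2 of the 8 were above 0.

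The Gadd45a and Pmaip1 differences rested in part on 3 EGFRvIII arrays, which were the highest of that group for both genes. Replicates 4, 5 and 6 of that group had Gadd45a at 9.14, 10.38 and 10.44, while the other 5 had 6.77, 7.15, 8.28, 9.04 and 8.49. Pmaip1 was 6.48, 6.71 and 7.07 in the same 3 arrays and between 3.19 and 5.17 in the other 5. The mean of 10 oligodendrocyte progenitor markers was 8.07, 6.62 and 9.01 in replicates 4, 5 and 6 and from 10.49 to 11.70 in the other 5, and the mean of 13 microglia and macrophage markers was 9.89, 9.51 and 8.90 in replicates 4 to 6 and from 7.88 to 8.79 in the rest. The part of these cell types in the Gadd45a and Pmaip1 values was not tested. List means of further p53 targets, described further on, were 7.15, 7.24 and 7.18 in these 3 arrays and 6.56 to 6.86 in the other 5. Those of BCL2 family and caspase genes were 7.95, 7.95 and 7.69 in the 3 and 7.05 to 7.38 in the rest. Those of p53 regulators overlapped, at 8.01, 8.25 and 8.06 against 7.87 to 8.10. Without those 3 arrays, which earlier results of these data had singled out, the Gadd45a difference was -0.26 ± 0.37 (adjusted p = 0.868), and that of Pmaip1 was 0.44 ± 0.42 (adjusted p = 0.790). Leaving out the highest arrays of the reference group must move both differences up, so only the size of the move is informative.

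Leaving out a single array also decided whether Gadd45a passed. It did so in 7 of the 44 fits that each left out 1 array, with adjusted p from 0.00957 to 0.0465. The arrays were EGFRvIII replicates 1 and 2, E10 del replicates 4 and 5, E7 del replicate 1, D842V replicate 5 and V544ins replicate 5, and the differences without them ran from -1.30 to -1.05. Array quality weights gave -0.95 ± 0.26 (adjusted p = 0.0229). The other 7 members passed in none of these 44 fits.

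**Figure D2:**
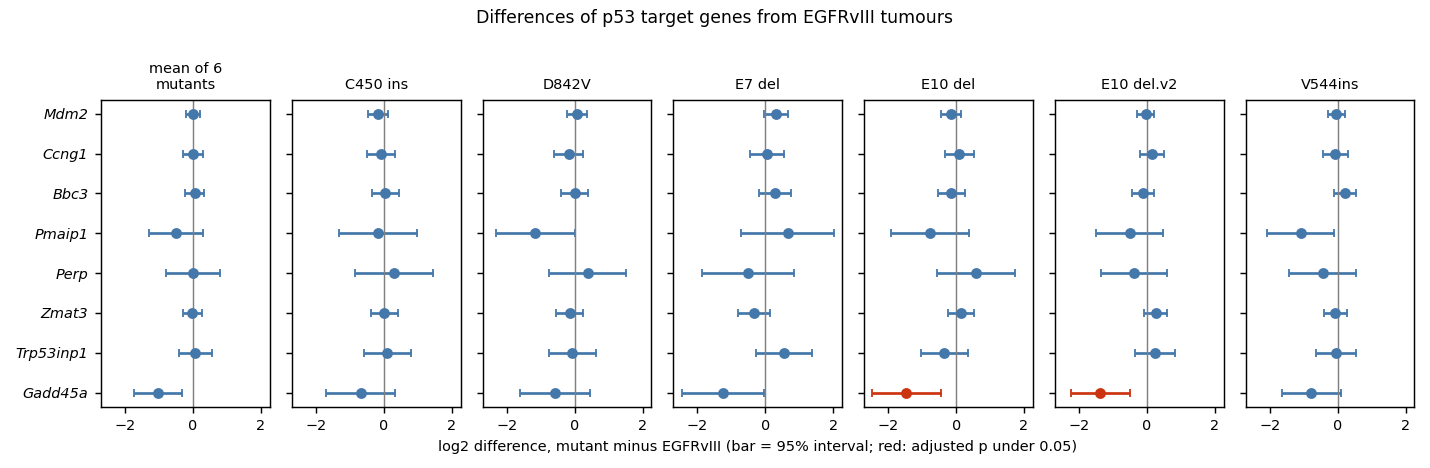
Log2 difference from EGFRvIII (horizontal axis) of each measured gene (rows) for the mean of the 6 mutants and for each mutant, with 95% intervals as bars and differences with an adjusted p under 0.05 in red. Gadd45a in E10 del (-1.47) and in E10 del.v2 (-1.37) are the red points, and the intervals of Mdm2 are the narrowest.

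Each mutant was then set against the same 8 EGFRvIII arrays, which all 6 comparisons share. In Pdgfra E10 del, a deletion form, 1 of the 8 members passed, beside 18.4% of all genes (11.2% lower). Gadd45a fell there by 1.47 on the log2 scale (SE 0.50, adjusted p = 0.0403), a 2.77-fold lower level than in EGFRvIII. In E10 del.v2 the same 1 of 8 passed, beside 7.06% of all genes (4.78% lower), and Gadd45a fell by 1.37 (SE 0.43, adjusted p = 0.0450), a 2.59-fold lower level. No member passed in C450 ins (0.0254% of all genes called), D842V (3.14%), E7 del (0.5%) or V544ins (4.06%). Gadd45a differed there by -0.69 ± 0.50, -0.58 ± 0.50, -1.25 ± 0.60 and -0.78 ± 0.43, with adjusted p from 0.302 to 0.620.

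Both Gadd45a calls were lost under other settings. In E10 del the 3 lowest values belonged to titles 17, 18 and 19, the neuron-rich arrays described further on. Without them and title 57 the difference was -0.40 ± 0.67 (adjusted p = 0.930), with the neuron marker mean as a covariate it was -0.78 ± 0.46 (adjusted p = 0.383), and with the title number range as a block it was -0.90 ± 0.66 (adjusted p = 0.677). The call was also lost without any 1 of titles 17, 18 and 19 (replicates 1, 3 and 2) or of EGFRvIII replicates 4, 5 and 6, with differences from -1.41 to -1.22 and adjusted p from 0.063 to 0.13. In E10 del.v2 the same 3 changes of the fit gave -1.23 ± 0.42, -0.89 ± 0.38 and -1.19 ± 0.45, with adjusted p of 0.0835, 0.141 and 0.114. There the call was lost in 15 of the 44 fits without 1 array (replicates 1 to 7 of that group, EGFRvIII replicates 4 to 7, C450 ins replicates 2 and 3, and D842V replicates 3 and 4), with differences from -1.39 to -1.13 and adjusted p from 0.05 to 0.163. Without EGFRvIII replicates 4, 5 and 6 the differences were -0.70 ± 0.49 in E10 del (adjusted p = 0.351) and -0.61 ± 0.43 in E10 del.v2 (adjusted p = 0.800).

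Among the other members, Pmaip1 had an unadjusted p of 0.0495 in D842V (-1.16 ± 0.57) and of 0.0311 in V544ins (-1.09 ± 0.49), with adjusted p of 0.271 and 0.193. Mdm2 differed by between -0.18 and 0.30 in the 6 mutants, the highest in E7 del (0.30 ± 0.17, adjusted p = 0.473). Zmat3 was between -0.34 in E7 del and 0.26 in E10 del.v2, and Trp53inp1 between -0.34 in E10 del and 0.55 in E7 del, none of them past the threshold. A moderated F test across the 6 mutants alone called 0 of the 8 genes, beside 0.576% of all genes. Zmat3 had the lowest adjusted p of the 8, 0.334, and Ccng1 the highest, 0.755, and at an unadjusted p under 0.05 the count was also 0. With array weights all 8 passed, where 10855 genes did, in a fit whose weights ran from 0.177 to 10.1.

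Sample titles carry numbers from 1 to 30 (21 arrays) or from 41 to 64 (24 arrays), which no label calls a batch. All EGFRvIII, E7 del and WT arrays have titles 41 to 64, and all C450 ins, D842V and E10 del arrays have titles 1 to 30. The last 3 genotypes share no title range with EGFRvIII, so an effect of the range on their differences can be estimated only through the 2 groups that hold both, as the fit with the range as a block does. V544ins and E10 del.v2 are those groups, with 6 arrays in titles 41 to 64 and 3 in titles 1 to 30 each, and within them none of the 8 genes differed between the ranges at an adjusted p of 0.05, beside 1.02% of all genes.

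Trp53inp1 came nearest, with a difference of 0.63 ± 0.29 (adjusted p = 0.188). In V544ins it was 8.44 ± 0.22 in titles 41 to 64 (SD, n = 6) and 7.58 ± 0.08 in titles 1 to 30 (n = 3), where the lowest of the first (8.08) was above the highest of the second (7.67). The share of all genes that separate these arrays in the same way was not counted, so this lack of overlap is not shown to be particular to Trp53inp1. In E10 del.v2 it was 8.57 ± 0.85 in titles 41 to 64, from 6.99 to 9.29, and 8.17 ± 0.41 in titles 1 to 30, from 7.75 to 8.56, so the ranges overlap. The low value of 6.99 is the array with title 57, E10 del.v2 replicate 2. Without it the difference was 0.79 ± 0.26 (adjusted p = 0.0430), and without it and titles 17, 18 and 19 it was 0.79 ± 0.23 (adjusted p = 0.0207). The 17 neuron markers, which Trp53inp1 moved against, were all lower in titles 41 to 64, with a median difference of -2.15, and with their mean as a covariate the Trp53inp1 difference was 0.15 ± 0.25 (adjusted p = 0.902). In V544ins their mean was 10.08 to 10.56 in titles 1 to 30 and 4.54 to 7.72 in titles 41 to 64. Title range and neuron content cannot be told apart there, and the part of either in Trp53inp1 was not tested.

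Mdm2 differed between the ranges by 0.25 ± 0.13 (adjusted p = 0.233), with 8.41 ± 0.21 in titles 41 to 64 against 8.13 ± 0.25 in titles 1 to 30 in V544ins, and 8.40 ± 0.20 in titles 41 to 64 against 8.18 ± 0.08 in titles 1 to 30 in E10 del.v2. Gadd45a differed by 0.57 ± 0.43 (adjusted p = 0.434). In V544ins it was 8.30 ± 0.74 in titles 41 to 64 against 7.21 ± 1.03 in titles 1 to 30, and in E10 del.v2 it was 7.35 ± 0.68 in titles 41 to 64 against 7.31 ± 0.12 in titles 1 to 30. No difference between the ranges was itself shown to differ between these 2 genotypes, with adjusted p of the interaction from 0.237 (Zmat3) to 0.905 (Mdm2).

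**Figure D3:**
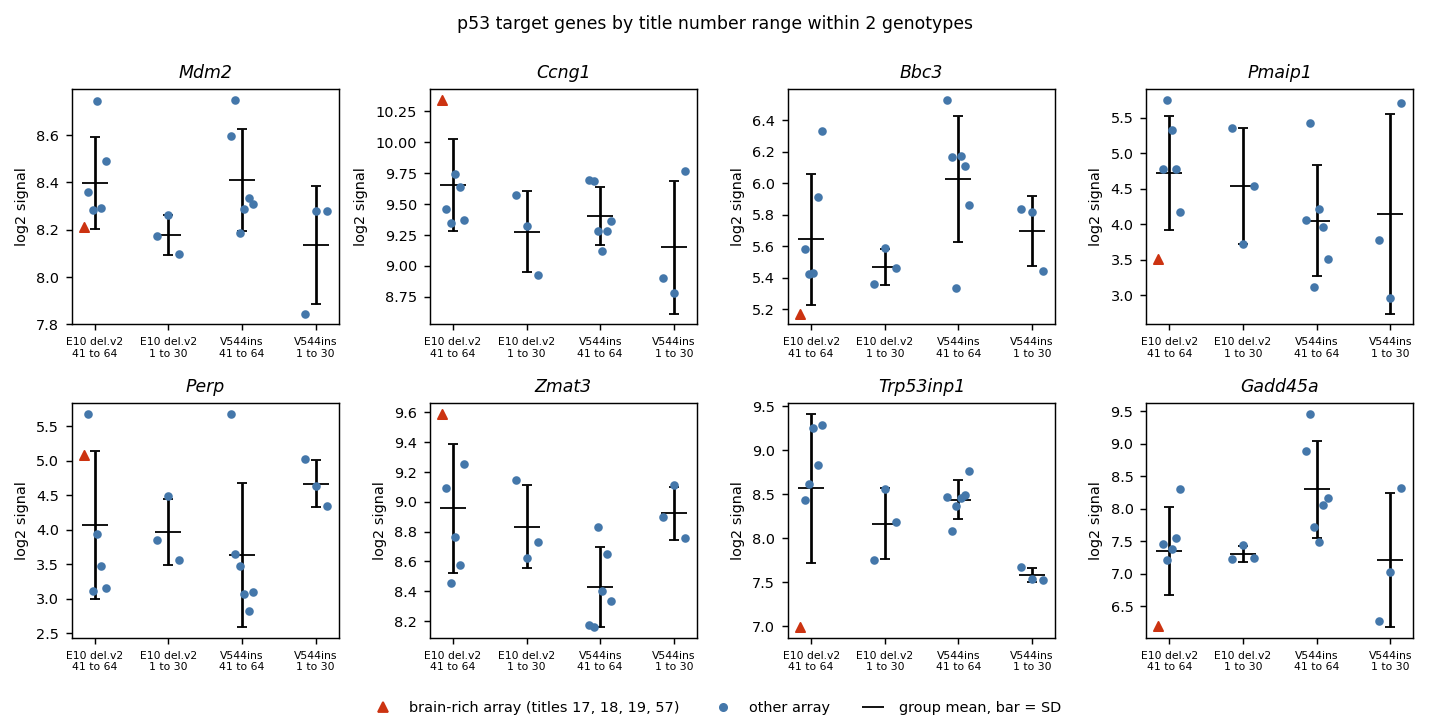
Log2 signal (vertical axis) of each measured gene in E10 del.v2 and V544ins arrays with titles 41 to 64 (n = 6 each) and titles 1 to 30 (n = 3 each), with means and SD as lines and bars. Trp53inp1 does not overlap between the ranges in V544ins, between 8.08 and 8.76 above and between 7.53 and 7.67 below. The share of all genes without overlap there was not counted, and the red triangle is title 57.

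Neuron transcripts varied widely between arrays and were followed through the mean of 17 neuron markers, such as Snap25, Syt1 and Rbfox3. That mean ran from 4.54 to 11.27 over the 45 arrays. With the genotype means in the fit, 5 of the 8 members had a slope on it at an adjusted p of 0.05, beside 64.8% of all genes (25.5% up and 39.4% down), so the count is near the background and is not particular to these genes. The part of neurons or other host cells in these slopes was not tested.

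Trp53inp1 fell by 0.24 (SE 0.04, adjusted p = 1.41e-05) per log2 unit of the neuron marker mean, Gadd45a fell by 0.29 (SE 0.07, adjusted p = 0.000829), Bbc3 fell by 0.11 (SE 0.03, adjusted p = 0.000837) and Mdm2 fell by 0.09 (SE 0.02, adjusted p = 0.000323). Zmat3 rose, with a slope of 0.10 ± 0.03 (adjusted p = 0.00280). The slopes of Ccng1 (0.01 ± 0.04), Pmaip1 (0.02 ± 0.10) and Perp (0.12 ± 0.09) did not pass, with adjusted p of 0.897, 0.875 and 0.251. The median slope of the members was -0.04, the same to 2 decimals as the -0.04 of all genes tested. All 14 cell cycle markers tested fell with the neuron marker mean, with a median slope of -0.44, and 7 of 11 astrocyte markers rose at an adjusted p under 0.05.

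All 5 slopes passed whichever single array was left out, in 44 of 44 fits, and without titles 17, 18, 19 and 57. Within titles 1 to 30 alone all 5 passed. Within titles 41 to 64 alone none of the 8 did, where 2830 genes passed, and the slopes were -0.18 ± 0.08 for Trp53inp1, -0.30 ± 0.14 for Gadd45a, -0.11 ± 0.05 for Bbc3, -0.07 ± 0.04 for Mdm2 and 0.06 ± 0.06 for Zmat3, with adjusted p from 0.0997 to 0.453. Each kept its sign there.

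**Figure D4:**
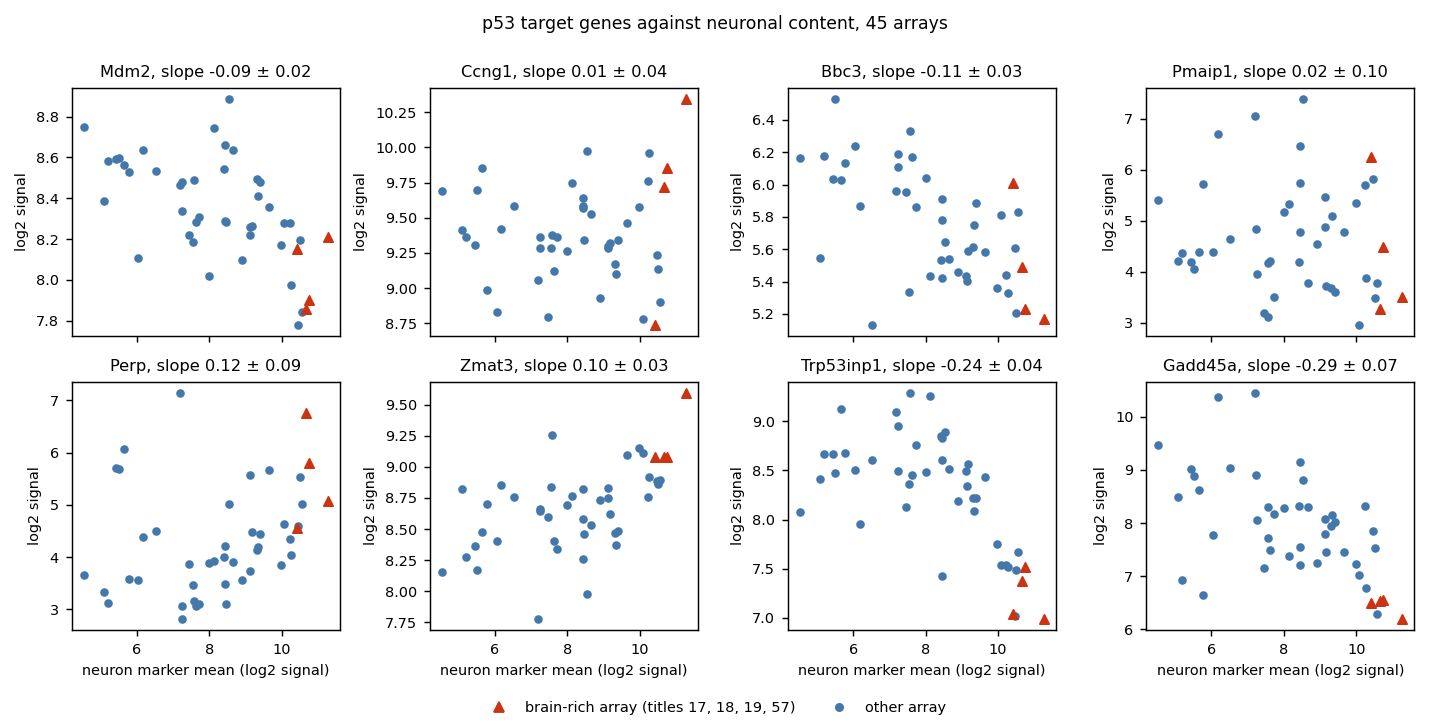
Log2 signal of each measured gene (vertical axis) against the mean log2 signal of 17 neuron markers (horizontal axis) in 45 arrays, with the within-genotype slope of the limma fit and its SE in each title. Trp53inp1, Gadd45a, Bbc3 and Mdm2 are lower and Zmat3 is higher in neuron-rich arrays, and the red triangles are titles 17, 18, 19 and 57.

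The arrays with titles 17, 18 and 19 (all E10 del) and 57 (E10 del.v2) are called brain-rich here. They had been singled out in earlier results of these data on principal components over all genes, which include the members, so their values are a description with no test. The neuron marker mean was 10.42 to 11.27 in them and 4.54 to 10.56 in the other 41 arrays, 3 of which were above 10.42. Not all brain markers were raised in the brain-rich arrays. Myelinating oligodendrocyte markers had means of 7.50 to 8.73 in them (average 7.98) and 5.88 to 10.18 in the others (average 8.65). Astrocyte markers had 8.56 to 9.32 in the brain-rich arrays and 6.16 to 9.30 in the others. The cell cycle marker mean was 4.53 to 5.87 in the brain-rich arrays and 5.68 to 9.12 in the others. Oligodendrocyte progenitor markers had means of 8.14 to 9.07 in the brain-rich arrays and 6.62 to 11.73 in the others, and microglia and macrophage markers had 6.77 to 8.15 in the brain-rich arrays and 7.58 to 9.89 in the others.

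Gadd45a was 6.55, 6.49, 6.54 and 6.20 in titles 17, 18, 19 and 57, and 40 of the other 41 arrays were above 6.55. Trp53inp1 was 7.52, 7.04, 7.38 and 6.99, and 37 of the others were above 7.52. Mdm2 was 7.90, 8.15, 7.86 and 8.21, with 32 of the others above 8.21. Gadd45a and Trp53inp1 were thus at the low end of the series in the brain-rich arrays, and Mdm2 was in its lower part.

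Zmat3 was 9.08 in each of titles 17, 18 and 19 and 9.59 in title 57, and 37 of the other 41 arrays were below 9.08. Perp was 5.79, 4.55, 6.76 and 5.08, and 30 of the others were below 4.55. Zmat3 in title 57 was the highest value of that gene in the series. Bbc3 (5.17 to 6.01), Ccng1 (8.74 to 10.34) and Pmaip1 (3.27 to 6.25) spread over most of the range of the other arrays, and title 57 had the highest Ccng1 of all 45 arrays.

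Within Pdgfra E10 del, the 3 brain-rich arrays could be set beside 2 arrays of the same genotype and title range, titles 16 and 20. Gadd45a, Mdm2 and Trp53inp1 were lower in all 3 than in both others, Perp and Zmat3 were higher, and Bbc3, Ccng1 and Pmaip1 overlapped. Trp53inp1 had 7.52, 7.04 and 7.38 in the brain-rich arrays and 8.85 and 8.51 in the other 2, and Gadd45a had 6.55, 6.49 and 6.54 in the brain-rich arrays against 8.32 and 8.31 in the other 2. Such a lack of overlap held for 66.8% of all genes (28.5% above and 38.3% below), so 5 of 8 is close to the background.

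Further probe sets of 3 members were available. The second Mdm2 probe set had a correlation of 0.83 with the one used over the 45 arrays and also fell with the neuron marker mean, with a slope of -0.16 (adjusted p = 0.000338 over all probe sets). The other 2 Ccng1 probe sets had correlations of 0.73 and 0.74 with the first, and neither passed in any comparison. The one with 0.74 was lower in the 6 mutants than in EGFRvIII by 0.31 (SE 0.15, limma adjusted p = 0.178). In V544ins it was lower by 0.50 (SE 0.18, adjusted p = 0.122). The one with 0.73 differed by -0.06 ± 0.24 and -0.28 ± 0.30, and the one used by -0.01 ± 0.14 and -0.07 ± 0.17. The second Trp53inp1 probe set lay below the table median on all 45 arrays, with a mean of 3.40 and a correlation of 0.27 with the first. The differences of Trp53inp1 rest on the brighter probe set.

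Other genes of the pathway were described from lists chosen with earlier results known. Of 26 tested further p53 targets, 1 passed in the mutants against EGFRvIII, beside 8.9% of all genes. Tigar, which lowers glycolytic flux, rose by 0.36 ± 0.12 (adjusted p = 0.0490), and the call was lost in 34 of 44 fits without 1 array, with adjusted p from 0.0502 to 0.155, and without EGFRvIII replicates 4, 5 and 6 (0.31 ± 0.15, adjusted p = 0.493). The median of the 26 was -0.14, beside -0.02 for all genes. Cdkn1a, which encodes the CDK inhibitor p21 and is the best known p53 target, differed by -0.34 ± 0.29 (adjusted p = 0.447) and by between -0.96 in E10 del.v2 and 0.48 in E7 del, with no call. Against EGFRvIII, Fas, a death receptor, fell in E10 del by 1.29 (adjusted p = 0.0297) and in E10 del.v2 by 1.08 (adjusted p = 0.0494), and Sesn2, a stress-induced inhibitor of mTORC1 signalling, fell in E10 del by 1.01 (adjusted p = 0.0133). The Fas calls were lost in 6 of 44 fits without 1 array in E10 del and in 30 in E10 del.v2, and the Sesn2 call in none. Without titles 17, 18, 19 and 57 no gene was called in E10 del, where Sesn2 differed by -1.04 ± 0.37 (adjusted p = 0.691) and Fas by -0.92 ± 0.58 (adjusted p = 0.792). Both E10 del calls were also lost with the title range as a block, with the neuron marker mean as a covariate, with only the arrays compared and without EGFRvIII replicates 4, 5 and 6, with Sesn2 from -1.01 to -0.53 and Fas from -1.29 to -0.76. Fas in E10 del.v2 was -0.55 (adjusted p = 0.790) without those 3 EGFRvIII arrays. In E10 del, 2 of the 26 passed, 2 of 19 regulators, 4 of 16 BCL2 family and caspase genes and 3 of 12 relatives of the members, beside the 18.4% of all genes. No further target passed in the F test or between the title ranges.

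Of 19 tested regulators and relatives of p53, 1 passed in the mutants against EGFRvIII, beside 8.9% of all genes, with a list median of -0.12. Cdkn2a, whose locus encodes the CDK inhibitor p16 and, from another reading frame, ARF, an inhibitor of Mdm2, fell by 1.59 (SE 0.51, adjusted p = 0.0443). Its probe set mean was 8.87 ± 0.71, 8.95 ± 1.04, 9.44 ± 0.18, 5.91 ± 2.35, 8.32 ± 1.72 and 8.28 ± 0.96 in C450 ins, D842V, E7 del, E10 del, E10 del.v2 and V544ins, 9.89 ± 0.92 in EGFRvIII and 10.44 in WT. In E10 del it fell by 3.98 (SE 0.74, adjusted p = 0.00290), with 3.85, 4.46 and 4.30 in titles 17, 18 and 19 and 8.52 and 8.41 in titles 16 and 20. Title 57 had 4.05, so Cdkn2a was below the table median in the 4 brain-rich arrays and above 7 in the other 41. Those 4 arrays had been singled out on values of all genes, and the share of genes that separate them in this way was not counted. The separation is thus a description and is not shown to be particular to Cdkn2a. Without those 4 arrays the E10 del difference was -1.42 ± 0.64 (adjusted p = 0.705), and the difference of the 6 mutants was -1.08 ± 0.33 (adjusted p = 0.0437). The call of the 6 mutants was lost in 17 of 44 fits without 1 array, with adjusted p from 0.0509 to 0.171, and without EGFRvIII replicates 4, 5 and 6 (-1.13 ± 0.63, adjusted p = 0.605). Mdm4, an inhibitor of p53 that acts beside Mdm2, differed by 0.11 ± 0.10 (adjusted p = 0.492).

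Of 16 tested BCL2 family and caspase genes, 2 passed, beside the same 8.9%, with a list median of -0.18. Bcl2, an inhibitor of apoptosis, fell in the mutants by 0.85 (SE 0.22, adjusted p = 0.0125), and Bcl2l11, the BH3-only activator BIM, fell by 0.87 (SE 0.29, adjusted p = 0.0494). The Bcl2 call was lost without EGFRvIII replicate 5 (-0.74, adjusted p = 0.0794), and that of Bcl2l11 in 32 of 44 fits without 1 array. Without EGFRvIII replicates 4, 5 and 6 the Bcl2l11 difference turned to 0.074 ± 0.24 (adjusted p = 0.941), and that of Bcl2 was -0.60 ± 0.26 (adjusted p = 0.443). The 2 genes have opposite roles. Among 12 relatives of Gadd45a, Trp53inp1, Zmat3 and Perp, 1 passed, beside the same 8.9%. Emp2, a tetraspan membrane protein gene, fell by 0.97 (SE 0.29, adjusted p = 0.0336), and the list median was 0.01. That call was lost without EGFRvIII replicate 4, 5 or 6, with differences from -0.93 to -0.71, and without all 3 the difference was -0.37 ± 0.32 (adjusted p = 0.764).

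On the neuron marker mean, 11 of the 26 further targets passed, 4 up and 7 down, beside the same 64.8% of all genes. Plk2, a polo-like kinase of neuronal synapses, rose by 0.43 per unit, and Sesn1, a sestrin, by 0.16, while Gtse1, a G2 phase protein gene, fell by 0.28 and Ddit4, an mTORC1 inhibitor gene, by 0.26. Of the 19 regulators, 16 passed, 3 up and 13 down, with the checkpoint kinase genes Chek1 and Chek2 falling by 0.37 and 0.29 and Cdkn2a by 0.49. Of the BCL2 list 11 of 16 passed (4 up, 7 down) and of the relatives 7 of 12 (2 up, 5 down), among which Zmat4 rose by 1.0 per unit.

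The genes most like Mdm2 over the 45 arrays, by Pearson correlation among the 11809 kept genes, were Abcc3 (0.78), Snx5 (0.78), Katna1 (0.77), Dennd1b (0.76) and Clec5a (0.76). Without the 4 brain-rich arrays their correlations were 0.78, 0.79, 0.75, 0.71 and 0.74. The genes most like Ccng1 were Vrk2 (0.67), Gca (0.64), Stard8 (0.62), Kcnj3 (0.62) and Acsl5 (0.61), and without those 4 arrays the values were 0.57, 0.54, 0.47, 0.48 and 0.59. The arrays share the normalization and the same mixture of tumour and host cells, and the correlations are a description.

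Over the whole series the deposited log2 signals ran from 1.46 to 13.82, with array medians from 4.66 to 4.85. The labelled brain tissue was checked against neuron, myelinating oligodendrocyte and astrocyte markers. Their array means ran from 4.54 to 11.27, from 5.88 to 10.18 and from 6.16 to 9.32. The array with the highest oligodendrocyte mean, V544ins replicate 4, had a neuron mean of 5.51 and the lowest astrocyte mean, 6.16. The filter kept 1 of the 9 lymphocyte markers measured, and their mean stayed between 3.25 and 3.92 on every array. Endothelial and mural markers had array means from 5.32 to 7.01, and fibroblast and meningeal markers from 4.50 to 8.97. Pdgfra and Egfr, as read by the mouse probe sets, differed between the mutants and EGFRvIII by -0.43 ± 0.47 and -0.16 ± 0.37 (limma adjusted p of 0.556 and 0.793).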

How the data were processed

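RNA of 45 samples was measured on Affymetrix 3' IVT arrays, from 100 ng of total RNA per the labels' protocols. The deposited values are log2 signals that the authors made with RMA, per the submitters' processing notes, and the version and settings are not given in the sources used here. RMA puts all arrays on 1 distribution and shrinks low signals, and precision is limited by how many arrays a group has. Of 45141 probe sets, 28898 were annotated with 1 gene symbol, 551 with several and 15692 with none. The probe set of highest mean stood for a gene. Tests ran on the 11809 genes with 3 or more arrays above the table median, in R 4.3.3 with lmFit and eBayes of limma 3.58.1 (group means, Benjamini-Hochberg over all genes, 0.05 as the threshold). Groups follow the labelled genotype, and the Pdgfra WT array entered no contrast. The slope was tested on 11792 genes, without the neuron markers. The procedure was tested on simulated data with independent normal noise, of the same SD in every array for a given gene. Correlation between genes and unequal spread between arrays were not simulated, so that test does not cover them.

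The members and gene lists were chosen with earlier results of these data known. Named were all members, up to 4 genes of smallest p in each other list and comparison, Pdgfra, Egfr and the 5 genes most correlated with Mdm2 and with Ccng1. The alternatives changed the filter, the summary over probe sets, the centring, the normalization, the prior, the weights, the arrays kept, the title range as a block and the neuron marker mean as a covariate, and left out each array in turn.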

Additional observations from a re-analysis of the deposited data

Results flagged for a closer look

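Of 48 pairs of a gene and a genotype with 4 to 10 arrays, 3 held an array far from the others of its genotype. Chance gives about 1 in 20, so this count is near what chance gives. Zmat3 was 7.78 in EGFRvIII replicate 6, where the nearest of the other 7 arrays had 8.60, and the gap was 0.716 of the range of the group. Perp was 7.14 in the same array, with the nearest at 4.50 and a gap of 0.691 of the range. Zmat3 was 8.87 in Pdgfra D842V replicate 1, with the nearest at 8.49 and a gap of 0.753 of the range. EGFRvIII replicate 6 also had the highest Gadd45a of the series, 10.44.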

How the results depend on the processing

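In E10 del the 1 member called, Gadd45a, became 0 with no filter, without titles 17, 18, 19 and 57, with the title range as a block, with the neuron marker mean as a covariate, with only the arrays compared, without EGFRvIII replicates 4, 5 and 6, and with every probe set as its own feature, a setting chosen after seeing the data. In E10 del.v2 the 1 became 0 under the same settings apart from no filter, and in titles 41 to 64 alone. With array weights, which ran from 0.177 to 10.1 in a fit without the Pdgfra WT array, the members called were 1 for the 6 mutants (935 of 11809 genes called), 8 for the F test (10855), 1 for E7 del (1705), 4 for E10 del (7294) and 4 for the title ranges (5427). The title ranges had 1 without titles 17, 18, 19 and 57, and the neuron slope had 0 in titles 41 to 64 alone. Leaving out 1 array gave 0 to 1 members for the 6 mutants, E10 del, E10 del.v2 and the title ranges, 5 in every fit for the slope, and 0 in every fit for the rest. The cause was not tested. Bcl2l11 in the 6 mutants turned to 0.074 (adjusted p = 0.941) without EGFRvIII replicates 4, 5 and 6.

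Genes called moved with the setting. For the 6 mutants 1051 became 54 without EGFRvIII replicates 4, 5 and 6 and 2207 probe sets with every probe set as its own feature. For the F test 68 ran from 0 (titles 41 to 64 alone) to 10855 (array weights), for C450 ins 3 from 0 to 545, for D842V 371 from 57 to 2668, for E7 del 59 from 4 to 1705, for E10 del 2172 from 0 (without titles 17, 18, 19 and 57) to 7294, for E10 del.v2 834 from 7 to 1566 (probe sets), for V544ins 480 from 0 to 1110, for the title ranges 121 from 0 to 5427 and for the slope 7646 from 2830 genes to 13946 probe sets, the last with every probe set as its own feature. Leaving out 1 array gave 185 to 2239 genes for the 6 mutants, 4 to 141 for the F test, 1 to 14 for C450 ins, 114 to 785 for D842V, 10 to 128 for E7 del, 193 to 3749 for E10 del, 146 to 2085 for E10 del.v2, 120 to 954 for V544ins, 0 to 1301 for the title ranges and 7351 to 7747 for the slope. Titles 1 to 30 alone hold no EGFRvIII array and gave only the F test and the slope. No paired analysis was possible because each title has its own number and the groups share none. Perp and Pmaip1 lay below the table median on most arrays, which limits what their differences can show.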
